A study of Mus musculus with 2 samples.

Results

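C-fibre low-threshold touch neurons were picked out of 2 single-cell libraries of mouse cervical dorsal root ganglia by their messenger RNA alone. A barcode was counted as a member when it held at least 3000 unique molecular identifiers (UMIs), at least 3 UMIs and at least 5 per 10000 of Th, and at least 1 UMI of Slc17a8. It also had to hold less than 3 per 10000 of Trpm8, less than 3 per 10000 of Mrgprd and less than 5 per 10000 of Nppb and Il31ra together. Of 27777 barcodes, 423 met this rule, 238 of 15710 in the control library and 185 of 12067 in the other. The members were thus chosen by their measured Th, Slc17a8, Trpm8, Mrgprd, Nppb and Il31ra and by depth, and these values are given as a description only.

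Control mice had the genotype Foxp3 CreER; Penk fl/WT. The other library, called Treg_Penk_KO, was made from mice of the genotype Foxp3 CreER; Penk fl/fl. In both, a tamoxifen-dependent Cre recombinase was expressed from Foxp3, the gene of the regulatory T cell transcription factor, and Penk encodes the enkephalin precursor. Both groups received tamoxifen and 3 days of imiquimod, an irritant that gives a psoriasis-like inflammation of the skin. Each group was 1 pooled library, so no difference between the genotypes was tested. The number, age and sex of the pooled mice were not stated in the sources used here. The sample labels describe fixed single cells, whereas the series text speaks of single nuclei.

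These neurons, also called C-low-threshold mechanoreceptors, have thin unmyelinated axons that end around hair follicles and answer to light, slow touch of hairy skin. Their terminals in the dorsal horn use the vesicular glutamate transporter encoded by Slc17a8. They also contain tyrosine hydroxylase, encoded by Th, the enzyme that begins catecholamine synthesis. In mice they release the chemokine-like protein encoded by Tafa4, and mice without it are more sensitive to mechanical stimuli after injury. The transcription factor Runx1 is needed for their development.

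Promoter sequences are shown for the 2 genes that defined the members and for Tafa4, the secreted product most particular to this cell type by background knowledge. They are RefSeq windows of the GRCm38.p6 assembly, from 250 bases before the annotated start to 50 bases after it, all on the minus strand and written 5′ to 3′. They lie at chr7:142899946-142900245 for Th, at chr10:89621200-89621499 for Slc17a8, which has a second annotated start, and at chr6:97060362-97060661 for Tafa4. Capitals mark a cAMP response element, TGACGTCA, a palindrome that is the same on both strands.
Th: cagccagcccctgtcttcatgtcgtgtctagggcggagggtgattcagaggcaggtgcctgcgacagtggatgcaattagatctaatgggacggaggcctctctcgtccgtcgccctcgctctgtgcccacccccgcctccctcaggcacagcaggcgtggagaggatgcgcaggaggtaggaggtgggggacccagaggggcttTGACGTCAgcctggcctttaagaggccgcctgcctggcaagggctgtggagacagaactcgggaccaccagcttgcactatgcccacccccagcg
Slc17a8: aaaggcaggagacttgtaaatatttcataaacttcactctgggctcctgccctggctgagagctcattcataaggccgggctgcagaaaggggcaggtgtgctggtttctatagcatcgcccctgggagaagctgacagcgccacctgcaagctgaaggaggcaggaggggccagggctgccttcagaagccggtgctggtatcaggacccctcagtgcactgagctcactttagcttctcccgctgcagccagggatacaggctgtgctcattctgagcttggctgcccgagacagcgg
Tafa4: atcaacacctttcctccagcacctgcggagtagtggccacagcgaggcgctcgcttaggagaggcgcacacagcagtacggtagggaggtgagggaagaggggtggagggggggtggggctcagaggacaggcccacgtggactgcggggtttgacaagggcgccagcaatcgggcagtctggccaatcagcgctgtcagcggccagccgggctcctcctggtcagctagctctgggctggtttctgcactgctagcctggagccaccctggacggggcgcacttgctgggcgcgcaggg
The Th window held 1 such element, whose first base lay at position -45 from the start, and neither start of Slc17a8 nor Tafa4 held it. It was present in 588 of 32851 RefSeq promoter windows, or 1.79%. The RUNX core searched as TGNGGTT on both strands was in none of these windows and in 14.89% of all. The motifs do not overlap, were chosen after the sequences had been seen, and a match is not evidence of binding.

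Before any comparison, the libraries' shared droplets were counted. Of the droplet barcodes, 4723 occurred in both libraries, but no droplet barcode was a member in both. Of members, 61 control (25.6%) and 64 Treg_Penk_KO barcodes (34.6%) used a droplet barcode that the other library also listed. The libraries held 259136217 and 156441497 UMIs. Levels below are CPM, the summed UMIs of a gene relative to all UMIs of a set of barcodes, where 100 CPM is 1 per 10000. They carry exact 95% intervals that cover counting error only and leave out the spread between cells, animals and preparations. The assay reads genes with probe pairs, so levels of different genes are not set against each other.

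The members' shares of neurons overlapped between the libraries within counting error. They were 3.36% (2.96 to 3.81) of 7075 control neurons and 3.61% (3.12 to 4.16) of 5118 Treg_Penk_KO neurons. Neurons were here taken as barcodes with at least 3000 UMIs and at least 10 per 10000 of the neuronal genes Snap25, Uchl1 and Tubb3 together. This gate was loose, as 7272 and 5300 barcodes reached 3000 UMIs in all, and it kept barcodes rich in glial RNA. A member held a median of 32550.5 UMIs in the control (range 3084 to 274097) and of 30359 in the Treg_Penk_KO library (3088 to 164729), with 6951 and 6772 genes. The other neurons had medians of 14121 and 11533 UMIs. In sum the members held 8366152 and 6095898 UMIs.

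The targeted gene, Penk, was low in members of the control library and nearly absent in the other. Penk had 21 UMIs in 11 control members, or 2.51 CPM (1.55 to 3.84), and 1 UMI in 1 Treg_Penk_KO member, or 0.164 CPM (0.00415 to 0.914). The ratio was 0.0654 (0.00158 to 0.406). Among other neurons Penk was at 2.07 CPM in the control library, and the Treg_Penk_KO library had no UMI of it, where a count of 3 would have been 0.0214 CPM. Whether the probes for Penk bind inside the deleted stretch was not stated in the sources used here, so this count does not by itself check the labels. The Cre was expressed from Foxp3, and Foxp3 had no UMI in members and 0.0336 and 0.0356 CPM in other neurons. Whether Penk was deleted in neurons was not tested. Genotype and library cannot be told apart as the source of the difference in Penk.

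The marker genes were found throughout the members, with Cdh9 missed most often. Th had a lowest, median and highest value of 5.02, 16.3 and 37.5 per 10000 in control members and of 5.06, 18.2 and 48.5 in Treg_Penk_KO members. Gfra2, the co-receptor through which neurturin acts on Ret, had a median of 8.20 per 10000 in the control and of 8.09 in the Treg_Penk_KO members. The ranges of both libraries overlapped almost wholly. P2ry1, a receptor for adenosine diphosphate, had medians of 6.90 and 7.25, and Zfp521, a zinc finger transcription factor, of 4.47 and 4.49. Cdh9, an adhesion protein of the cadherin family, had medians of 1.12 and 1.22, and Slc17a8 of 2.32 and 2.43.

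A UMI of Gfra2 was found in 99.2% of control and 98.9% of Treg_Penk_KO members, and of Tafa4 in 99.2% and 98.4%. With every barcode thinned to 3000 UMIs these shares were 87.8% and 92.4% for Gfra2 and 81.5% and 80.5% for Tafa4. In the A-delta set described below, which should lack Tafa4, the thinned share was 4.08% in the control at a median of 18093 UMIs before thinning. The thinned share of Tafa4 in the control was larger, at 13.8%, in the Mrgprd set, also described below. Cdh9 had a UMI in 82.4% and 84.9% of members and, thinned, in 25.6% and 35.7%. Those thinned levels lie near that of 1 UMI, and no difference between the libraries is read from them.

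**Figure D1:**
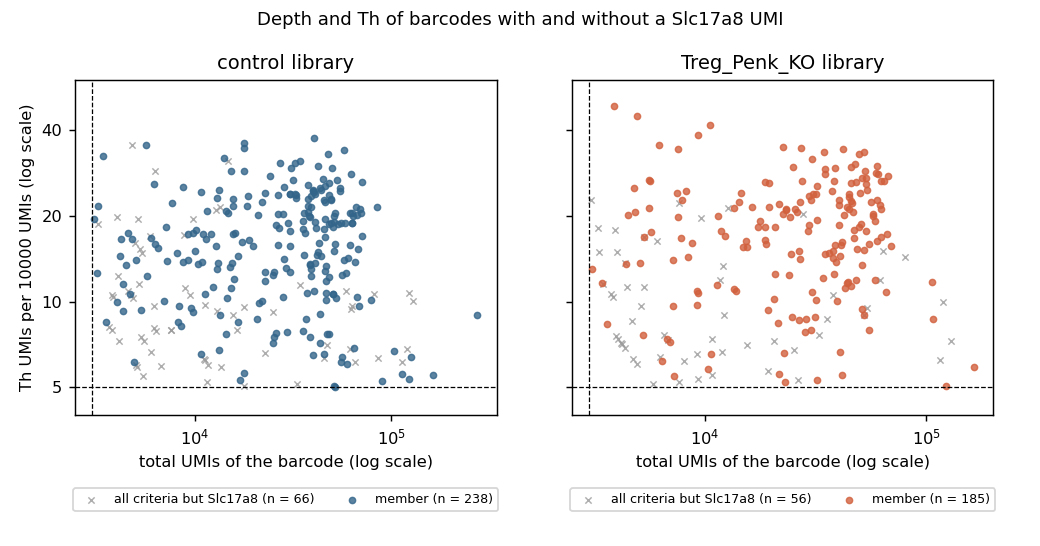
Th UMIs per 10000 UMIs (log scale) against total UMIs of a barcode (log scale) in each library. Filled points are the 238 and 185 members, crosses the 66 and 56 barcodes that met every criterion but Slc17a8, and dashed lines the limits of 5 per 10000 and 3000 UMIs; the crosses lie mostly among the shallower barcodes.

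At the edges of the rule, the plot of Th against depth shows which barcodes lay just outside. Barcodes that failed on Slc17a8 alone numbered 66 (control) and 56 (Treg_Penk_KO), with median depths of 9238 and 7881.5 UMIs. Their summed Tafa4 was at 58.2 and 64.9 CPM and their summed Gfra2 at 108 and 129 CPM. Deep barcodes weigh most in these sums, and the deepest (129355 and 128853 UMIs) had no UMI of Tafa4. Shallow ones were mixed. Some, such as those of 3785 (control) and 4013 UMIs (Treg_Penk_KO), held 13.21 and 17.4 per 10000 of Tafa4, above the member medians of 6.47 and 6.15. Others, such as those of 4132 and 3775 UMIs, held none. Whether the rule missed neurons of the same type among them was not tested. Members with exactly 1 Slc17a8 UMI numbered 36 and 24. The member lowest in Th had 5.02 per 10000 (control) and 5.06 per 10000 (Treg_Penk_KO). Failure on Th alone was more common, with 363 and 238 barcodes, of which the highest in Th had 5.50 and 5.18 per 10000 but fewer than 3 UMIs of it. Few barcodes failed only on Trpm8 (8 and 11), Mrgprd (5 and 4), Nppb with Il31ra (2 and 1) or depth (8 and 5). The highest Mrgprd inside the rule was 2.89 and 2.09 per 10000, and the lowest outside it 3.14 and 6.96.

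Tafa4 was high in members of every depth. Th was so by the rule, which asks for at least 5 per 10000, and its levels are a description only. In control members of 3000 to 10000 UMIs (38 barcodes) Th was at 1494 CPM and Tafa4 at 574 CPM, and in those of 30000 to 50000 UMIs (76 barcodes) at 1873 and 704 CPM. In Treg_Penk_KO members of the same bins (35 and 57 barcodes) Th was at 1864 and 1919 CPM and Tafa4 at 525 and 698 CPM. The 52 control members of at least 50000 UMIs had lower Th, at 1398 CPM, together with the highest levels of the glial gene Apoe (1160.3 CPM) and of the proprioceptor gene Pvalb (152 CPM). In the 38 deepest Treg_Penk_KO members Th was at 1798 CPM, Apoe at 1009.6 CPM and Pvalb at 15.03 CPM. The part of such RNA in the Th level was not tested.

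Set against the other neurons of the same library, all 6 markers were at least 2-fold higher in members in both libraries, as the map of levels by set shows. Over all 8182 genes with at least 20 CPM in members or in other neurons, 5.04% were higher and 9.53% lower by that measure. Th was at 1619.5 CPM in control members and 1837 CPM in Treg_Penk_KO members, against 28.2 and 36.9 CPM in other neurons. Slc17a8 was at 229.9 and 236 CPM against 6.51 and 7.30 CPM. Both genes chose the members, so their folds are not a finding.

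Of the 4 markers that the rule did not use, Cdh9 stood furthest above other neurons, at 124 and 148 CPM against 8.52 and 8.81 CPM, a fold of 14.5 (13.5 to 15.6) and 16.8 (15.4 to 18.3). P2ry1 was at 649.5 and 707 CPM (12.6-fold and 12.996-fold) and Zfp521 at 424 and 453 CPM (11.4-fold and 12.6-fold). Gfra2 was at 783 and 836 CPM (5.68-fold and 6.05-fold). On the GRCm39 assembly these protein-coding genes lie at chr15:16728507-16857226 (Cdh9), chr3:60910159-60916403 (P2ry1) and chr14:71127472-71217280 (Gfra2), all on the plus strand. Thus the 4 markers that did not choose the members were each above other neurons.

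**Figure D2:**
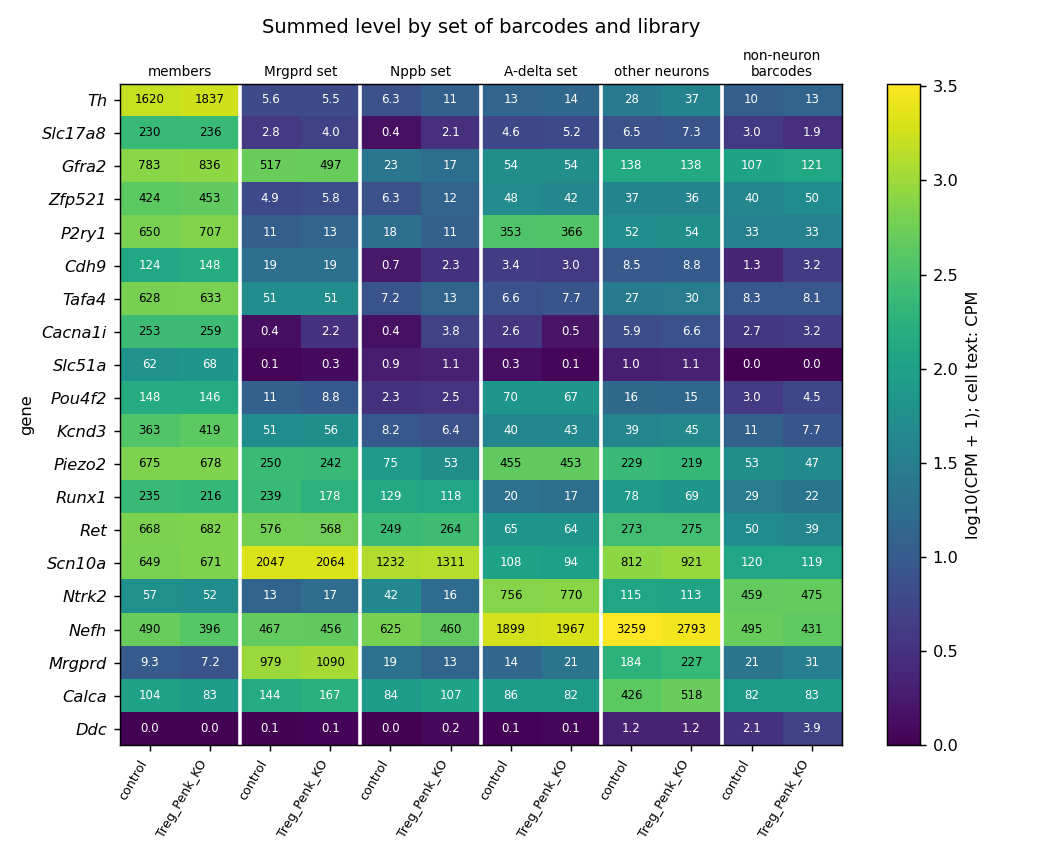
Summed level of 20 genes in 6 sets of barcodes, each as a control and a Treg_Penk_KO column; cell text is CPM and colour log10(CPM + 1). Th, Slc17a8, Zfp521, Cdh9, Tafa4, Cacna1i, Slc51a and Kcnd3 are highest in the member columns, Gfra2 is shared with the Mrgprd set and P2ry1 with the A-delta set, and Ddc is at 0.0 in both member columns.

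Further sets of neurons were taken for closer comparison, each with at least 3000 UMIs and Th under 3 per 10000. The Mrgprd set (910 control and 756 Treg_Penk_KO barcodes) held at least 5 per 10000 of Mrgprd, the receptor of nonpeptidergic nociceptors. The A-delta set (343 and 229) held Ntrk2 and Nefh at that level, as thinly myelinated touch neurons do, and the Nppb set (270 and 207) held Nppb and Il31ra, genes of itch neurons. Members shared Gfra2 with the Mrgprd set, where it was at 517 and 497 CPM and the member level only 1.51-fold and 1.68-fold higher. They shared P2ry1 with the A-delta set (353 and 366 CPM, 1.84-fold and 1.93-fold). The remaining markers were at least 2-fold higher in members than in each set, and all 6 were so against the Nppb set. For Th this was largely fixed by the rules for members and sets, and Slc17a8 chose the members, so neither is a finding. The background was 8.91% of 7823 genes higher against the Mrgprd set, 5.16% of 8229 against the A-delta set and 10.3% of 8053 against the Nppb set.

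Transmitter genes around Th differed in how members stood against other neurons. Ddc, whose enzyme makes dopamine from the product of tyrosine hydroxylase, had no UMI in members of either library. Dbh, Pnmt and the dopamine transporter gene Slc6a3 also had none. In other neurons Ddc was at 1.15 and 1.16 CPM. Pnmt was there at 0.0168 and 0.0214 CPM, Slc6a3 at 0.0042 and 0 CPM, and Dbh had no UMI. The lack of Dbh, Pnmt and Slc6a3 was thus not particular to members. For a gene with 0 UMIs, a count of 3 would have been 0.359 CPM in control members and 0.492 CPM in Treg_Penk_KO members. Gch1, which makes the cofactor that tyrosine hydroxylase needs, was at 1.43 CPM (0.741 to 2.51) in control and 1.80 CPM (0.901 to 3.23) in Treg_Penk_KO members, against 7.65 and 9.08 CPM in other neurons. Maoa, which breaks monoamines down, was at 165 and 169 CPM, 2.56-fold and 2.39-fold above other neurons. The vesicular monoamine transporter gene Slc18a2 was not analysed here.

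Th can also mark sympathetic neurons, and their defining genes were looked for. Of 9 sympathetic markers measured, 6 had no UMI in members, among them Phox2a, Hand2 and Gata3, factors that specify these neurons. Summed, the 9 were at 2.75 CPM in control and 3.12 CPM in Treg_Penk_KO members, against 9.43 and 9.86 CPM in other neurons. Of the vesicular glutamate transporters, Slc17a6 was at 470.5 and 491 CPM, 1.45-fold and 1.44-fold above other neurons. Slc17a7, the transporter of large touch and muscle afferents, was at 68.8 and 39.9 CPM against 424 and 363 CPM.

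Of 14 other genes known from these neurons, 8 were at least 2-fold higher in members than in other neurons, 3 were lower and the median log2 ratio over the 13 with enough counts was 1.60. Tafa4 was at 627.5 CPM (611 to 645) in control and 633 CPM (613 to 654) in Treg_Penk_KO members, against 27.3 and 29.9 CPM, a fold of 23.0 (22.2 to 23.9) and 21.2 (20.3 to 22.1). Pou4f2, a POU-domain transcription factor, was at 148 and 146 CPM, 9.50-fold and 10.0-fold higher. Runx1 was at 235 and 216 CPM, 3.00-fold and 3.15-fold higher, but 0.983-fold and 1.21-fold the level of the Mrgprd set. Ret, the signalling receptor that works with the Gfra2 product, was at 668 and 682 CPM (2.45-fold and 2.48-fold). The nociceptor sodium channels Scn10a (649 and 671 CPM) and Scn11a (281 and 291 CPM) were below other neurons, at 0.800-fold and 0.729-fold for Scn10a. Nefh, the heavy neurofilament of myelinated neurons, was among the 3 lower genes, at 490.4 and 396 CPM against 3259 and 2793 CPM.

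The mechanically gated channel Piezo2, which touch neurons need to sense indentation, was at 675 CPM in control and 677.5 CPM in Treg_Penk_KO members. That was 2.95-fold and 3.10-fold above other neurons and 1.48-fold and 1.496-fold above the A-delta set. It was the only gene of 13 on the mechanosensation list to be at least 2-fold higher, and 4 were lower, with a median log2 ratio of -0.47. Among the lower were the acid-sensing channel Asic3 (14.2 and 10.2 CPM against 130.3 and 124 CPM) and Stom, a membrane scaffold protein (3.23 and 2.13 CPM against 30.7 and 33.8 CPM).

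Of 11 voltage-gated calcium channel genes 2 were higher than in other neurons and 1 lower. Cacna1i, a low-voltage-activated T-type channel, was at 253 CPM (243 to 264) and 259 CPM (246 to 272), against 5.87 and 6.61 CPM in other neurons, 43.1-fold and 39.2-fold higher. Cacna1h, also of the T type, was at 155 and 141 CPM, 4.17-fold and 3.81-fold higher, but 0.504-fold and 0.463-fold the level of the A-delta set. The single lower gene, the L-type Cacna1c, was at 22.5 and 17.4 CPM against 76.1 and 81.1 CPM.

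Of 39 potassium and HCN channel genes 9 were higher and 12 lower, with a median log2 ratio of -0.17. Among the higher, Kcnd3, a channel of fast-inactivating A-type current, was at 363 and 419 CPM (9.40-fold and 9.41-fold), and Kcnip2, which binds such channels, at 359 and 379 CPM (2.86-fold and 2.75-fold). Kcna4, another A-type subunit, was at 146 and 146 CPM (4.77-fold and 4.32-fold), and Kcnd1 at 347 and 359.8 CPM (2.28-fold and 2.26-fold). Other A-type subunits and partners did not follow: Kcnip1 and Kcnc4 were among the lower, and Kcnd2, Kcnip3 and Kcnip4 were counted neither way. The inward rectifier Kcnj6, a target of G proteins, was at 26.5 and 26.9 CPM against 1.40 and 1.77 CPM (18.9-fold and 15.2-fold). The lower ones included Kcna1, a channel of myelinated axons, at 94.2 and 95.2 CPM against 375 and 320.2 CPM.

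Of 13 sodium channel genes 4 were higher and 1 lower. The higher included Scn3a (32.4 and 33.5 CPM against 4.92 and 4.75 CPM) and the auxiliary subunits Scn2b and Scn3b. Scn4b, an auxiliary subunit of fast-firing neurons, was lower, at 208 and 184 CPM against 476 and 428 CPM. Scn9a, a channel that amplifies small depolarisations, was at 734 and 746 CPM and 2.04-fold and 1.94-fold above other neurons, just inside and just outside the 2-fold limit.

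Of 26 sensory transcription factors 7 were higher and 9 lower, with a median log2 ratio of 0.17. Besides Zfp521, Pou4f2 and Runx1 the higher were Pou4f1, Isl2, Tlx3 and Casz1. Isl2, a LIM homeodomain factor, was at 893 and 983 CPM (2.48-fold and 2.52-fold), and Casz1, a zinc finger factor, at 340.5 and 358 CPM (3.70-fold and 3.92-fold). The lower held factors of large-diameter neurons, Runx3, Etv1, Maf, Shox2 and Esrrg.

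Of 13 secreted peptide and TAFA genes, Tafa4 was the only one at least 2-fold higher, and 8 were lower, with a median log2 ratio of -2.34. Calca, the peptide gene of peptidergic nociceptors, was at 104 and 82.8 CPM against 426 and 518 CPM. Tac1, the substance P gene, stood above other neurons by less than 2-fold, at 330.1 and 327 CPM against 206 and 257 CPM. Tac1 had a UMI in 92.9% and 93.5% of members and, thinned, in 58.4% and 62.2%.

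By a ranking of all genes on the interval bound nearest to 1, the 15 standing furthest above other neurons were Slc51a, Th, Ceacam10, Cacna1i, Wfdc2, Dgkk, Slc17a8, Ighg2c, Wnt11, Bmp15, Eppin, Smyd1, Plppr1, AW551984 and Tafa4. Slc51a, a subunit of an organic solute and steroid transporter, was at 62.0 and 68.2 CPM against 1.00 and 1.10 CPM, 61.8-fold (52.9 to 72.4) and 62.2-fold. Dgkk, a diacylglycerol kinase, was at 98.6 and 116 CPM (38.0-fold and 35.4-fold). Wfdc2, a secreted protein of the whey acidic protein family, was at 95.3 and 99.2 CPM (37.1-fold and 36.1-fold). Ceacam10, of the carcinoembryonic antigen family, was at 63.6 and 68.4 CPM (44.4-fold and 59.2-fold). Several are known best outside the nervous system, such as Smyd1, a methyltransferase of heart and skeletal muscle, Bmp15, a growth factor of oocytes, and Eppin, a protease inhibitor of the epididymis.

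The 13 of these that did not choose the members were also at least 2-fold higher in members than in the Mrgprd, A-delta and Nppb sets. For Th this was largely fixed by the rules for members and sets, and Slc17a8 was used by the rule for members. Their UMIs were spread over members: Slc51a had a UMI in 66.4% of control and 69.7% of Treg_Penk_KO members, and the 5 members holding most had 10.8% and 16.3% of its UMIs. Bmp15 and Ceacam10 were the most uneven of the 15. In Ceacam10 the 5 members had 18.2% and 20.6% of the UMIs. Bmp15 had 17.9% and 26.8% of its UMIs in 5 members and a UMI in 36.1% and 33.0% of members.

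The 10 furthest below other neurons were Mrgprb4, Mrgprd, Tmem233, Gna14, Il31ra, Lpar3, Chrna7, A3galt2, Agtr1a and Hapln1, of which Mrgprd and Il31ra were used by the rule. Mrgprb4, a receptor of other stroking-sensitive C fibres, had 5 and 9 UMIs in members, or 0.598 and 1.48 CPM, against 55.8 and 96.4 CPM. Gna14, a G protein subunit, was at 8.25 and 4.92 CPM against 120.0 and 141 CPM, and Lpar3, a lysophosphatidic acid receptor of Mrgprd neurons, at 7.29 and 3.94 CPM against 86.3 and 90.4 CPM. In the A-delta set Mrgprb4 was at 18.1 and 7.42 CPM, Gna14 at 18.1 and 14.7 CPM and Lpar3 at 9.15 and 10.8 CPM. A level below the pooled other neurons was thus not particular to members for these genes.

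Genes used as markers of other cells had UMIs in members too, and whether they came from the members or from other cells was not tested. Satellite glia markers summed to 1048 and 913 CPM in members, against 3446 and 2976 CPM in other neurons, and 6 of 7 were at least 2-fold lower. Per barcode the satellite and myelinating glia markers summed to a median of 23.9 per 10000 in both libraries, with a highest value of 384 and 233. Pmp22, counted among them as a myelin gene, was at 1604 and 1627 CPM in members against 723 and 722 CPM. A limit of 20 per 10000 on this sum, used as a setting below, left out 166 of 238 control and 124 of 185 Treg_Penk_KO members. With Pmp22 in the sum, that limit does not pick out barcodes by RNA of glia alone. The endothelial markers summed to 23.2 and 9.51 CPM, and the macrophage markers to 23.5 and 29.9 CPM. Of the 5 mural cell markers Rgs5, a regulator of G protein signalling, alone reached 20 CPM, at 415 and 478 CPM against 67.7 and 95.7 CPM, with a UMI in 98.3% and 95.7% of members and, thinned, in 73.5% and 69.2%. The mural markers summed to 435 and 486 CPM in members and to 388 and 505 CPM in the A-delta set, so this sum was not particular to members. Markers of other neuron types were uneven: Pvalb, Slc17a7, Calca and Adcyap1 together reached 3 per 10000 in 37 of 238 control members (15.5%, 11.2 to 20.8) and in 22 of 185 Treg_Penk_KO members (11.9%, 7.60 to 17.4).

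Between the libraries, most genes of members were close, as the plot of ratios against level shows. Of 7368 genes with at least 20 CPM, 96.3% had a log2 ratio of Treg_Penk_KO to control within 0.32 of 0, the limit used here, and the median log2 ratio was -0.01. A ratio past this limit was found for 84 genes upward (1.14%) and 188 downward (2.55%), and the interval bound nearer to 0 passed it for 3 upward (0.0407%) and 31 downward (0.421%). The 6 marker genes had a median ratio of 1.08, and none passed the limit. Th was at a ratio of 1.13 (1.11 to 1.16), Gfra2 of 1.07 (1.03 to 1.11), Cdh9 of 1.20 (1.09 to 1.31), Tafa4 of 1.01 (0.968 to 1.05) and Piezo2 of 1.00 (0.964 to 1.05). Of the 12 other known genes with enough counts, none passed the limit either way.

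**Figure D3:**
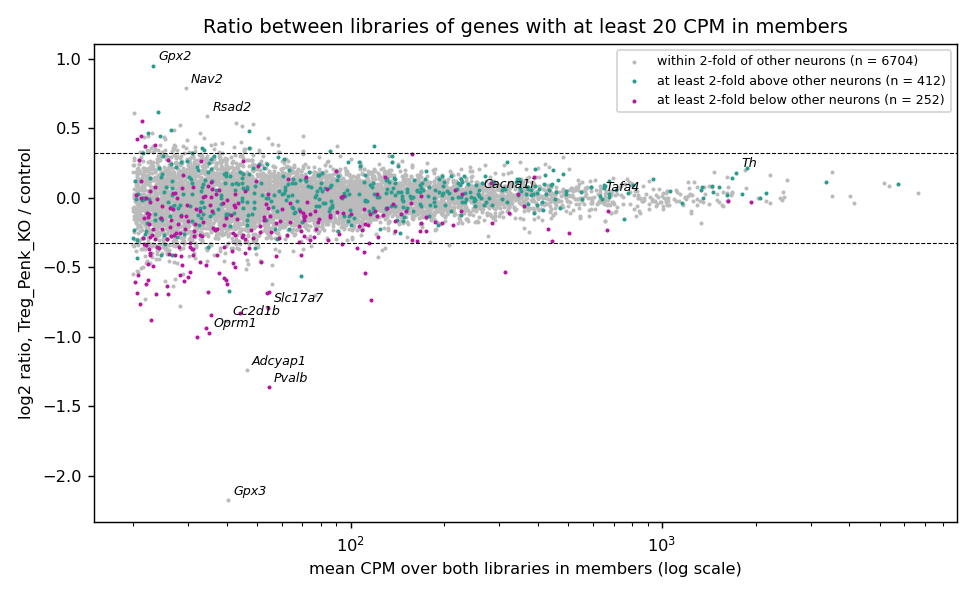
Log2 ratio of Treg_Penk_KO to control in members against mean CPM over both libraries (log scale) for the 7368 genes with at least 20 CPM; dashed lines mark a log2 ratio of 0.32 either way. Colours give the 412 and 252 of these genes at least 2-fold above or below other neurons, and the points far below the lower line are largely genes below other neurons.

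The 10 genes highest in the Treg_Penk_KO members, ranked by the interval bound nearest to 1, were Gpx2, Nav2, Rsad2, Hsf1, Snapc1, Lrrc31, Ifi35, Net1, Ahsa2 and Ptpro. Gpx2, a glutathione peroxidase that is itself 6.48-fold and 8.03-fold higher in members than in other neurons, was at 15.8 CPM in control and 30.5 CPM in Treg_Penk_KO members, a ratio of 1.93 (1.54 to 2.44). Its ratio was 1.56 (1.39 to 1.76) in other neurons, and 1.21 in members thinned to 3000 UMIs. Nav2, a protein of neurite outgrowth, was at 21.6 and 37.4 CPM (1.73, 1.42 to 2.11), and the ratio in other neurons was 1.83. Hsf1, the master factor of the heat shock response, was at 39.6 and 57.3 CPM (1.45, 1.24 to 1.69), against 1.08 (1.05 to 1.12) in other neurons. Ahsa2, an activator of the chaperone Hsp90, was at 59.6 and 81.0 CPM (1.36, 1.20 to 1.54), against 1.18 in other neurons. Snapc1, a subunit of a factor for small nuclear RNA transcription, was at 34.9 and 50.9 CPM (1.46) and at a ratio of 1.51 in other neurons. Net1, a guanine nucleotide exchange factor, was at 15.9 and 24.3 CPM (1.53), and at a ratio of 0.812 in members with glial markers under 20 per 10000. The difference of these ratios between members and other neurons was not tested.

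Some interferon response genes were higher in Treg_Penk_KO members. Of 36 measured, 21 had at least 20 CPM, 6 of these were past the limit upward (1.14% of all genes) and none downward (2.55%), 15 were within it, and the median ratio was 1.21, a log2 of 0.28. Rsad2, the antiviral protein viperin, was at 27.6 and 41.5 CPM (1.503, 1.253 to 1.80), with a ratio from 1.04 to 2.26 under 12 settings. Ifi35 was at 36.7 and 52.7 CPM (1.44, 1.22 to 1.68). Irf7, the factor that amplifies interferon production, was at 50.6 and 65.9 CPM (1.30, 1.14 to 1.499). Ifit2, which blocks translation of foreign RNA, was at 17.9 and 24.4 CPM (1.36, 1.08 to 1.72). Ifi44 and Xaf1 had ratios of 1.29 and 1.26. The abundant Oasl2 was at 285 and 271 CPM (0.949, 0.891 to 1.01).

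**Figure D4:**
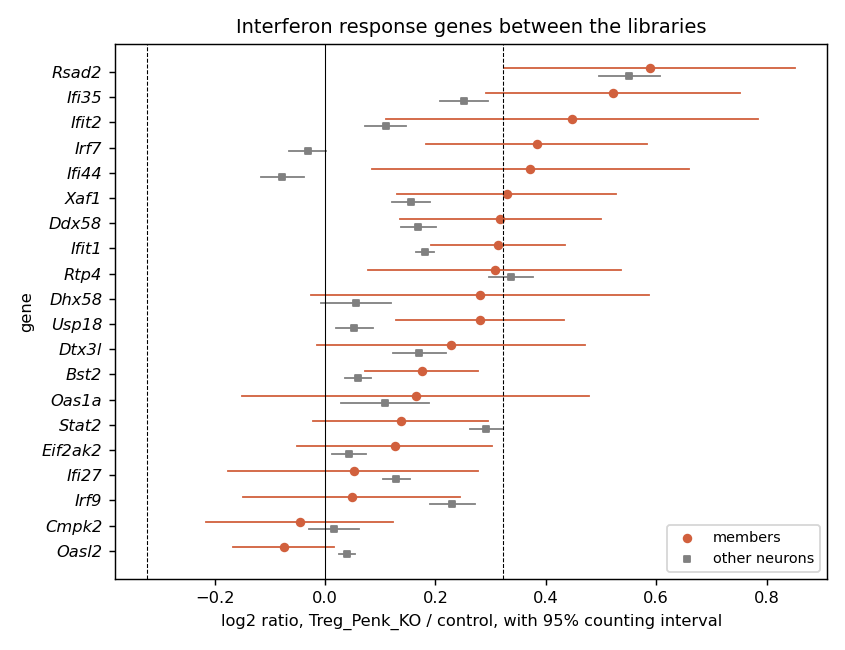
Log2 ratio of Treg_Penk_KO to control with its 95% counting interval for 20 of the 21 interferon response genes with at least 20 CPM, in members (circles) and in other neurons (squares); dashed lines mark a log2 ratio of 0.32 either way. In members 6 genes lie past the upper line, in other neurons 2, and none lies past the lower line in either.

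The same 21 genes had a median log2 ratio of 0.11 in other neurons, with 2 past the limit, Rsad2 and Rtp4. As the plot of interferon genes shows, Irf7 was at 80.6 and 78.8 CPM in other neurons and Ifi44 at 63.6 and 60.3 CPM, below 1 in ratio, whereas both were above it in members. The median of the list in members lay between 0.21 and 0.29 under 12 alternative settings, among them thinning and the limit on summed glial markers, Pmp22 included. The receptor genes Ifnar1 (251.3 and 247 CPM, 3.07-fold and 3.01-fold above other neurons) and Ifngr2 (183 and 201 CPM, 2.20-fold and 2.37-fold) differed by less than the limit between the libraries. Of 13 genes on the itch and cytokine receptor list, which holds both, 2 were higher than in other neurons and 5 lower. The median log2 ratio of that list to other neurons was -0.88. The difference between members and other neurons was not tested, and the list was chosen with the ratios of all neurons in these libraries known.

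Immediate early genes, which activity switches on within minutes, were close between the libraries. Of 10 with enough counts none was past the limit upward (1.14% of all genes) and 1 downward (2.55%), Gadd45g (37.9 and 27.6 CPM), with a median log2 ratio of -0.07 that turned positive under 4 of 12 settings. Egr1 was at 21.2 and 19.4 CPM (0.915, 0.719 to 1.16) and Fos at 5.26 and 4.76 CPM (0.905, 0.546 to 1.48). Of 10 glucocorticoid-induced genes 2 were past the limit downward (2.55% of all genes), Mt2 and Ddit4, with a median log2 ratio of -0.04. None of 7 itch and cytokine receptor genes passed the limit either way, and none of the 5 axon injury genes did.

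The 10 genes lowest in Treg_Penk_KO members were Gpx3, Pvalb, Adcyap1, Tmem229b, Oprm1, Etv1, Cc2d1b, Clec2l, Scg2 and Slc17a7. Gpx3, a secreted glutathione peroxidase, was at 66.0 and 14.6 CPM (0.221, 0.175 to 0.277), and its ratio was 0.671 in thinned members. Pvalb, a calcium buffer of muscle afferents, was at 78.4 and 30.5 CPM (0.389), and Adcyap1, a peptide gene of nociceptors, at 65.1 and 27.6 CPM (0.423). Apart from Cc2d1b, these 10 genes had their control UMIs concentrated in a few members. The 5 members holding most had 73.4% of the control UMIs of Gpx3, 79.1% of Pvalb, 77.8% of Adcyap1 and 53.1% of Slc17a7, whereas the median over all 7368 genes was 12.2%.

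**Figure D5:**
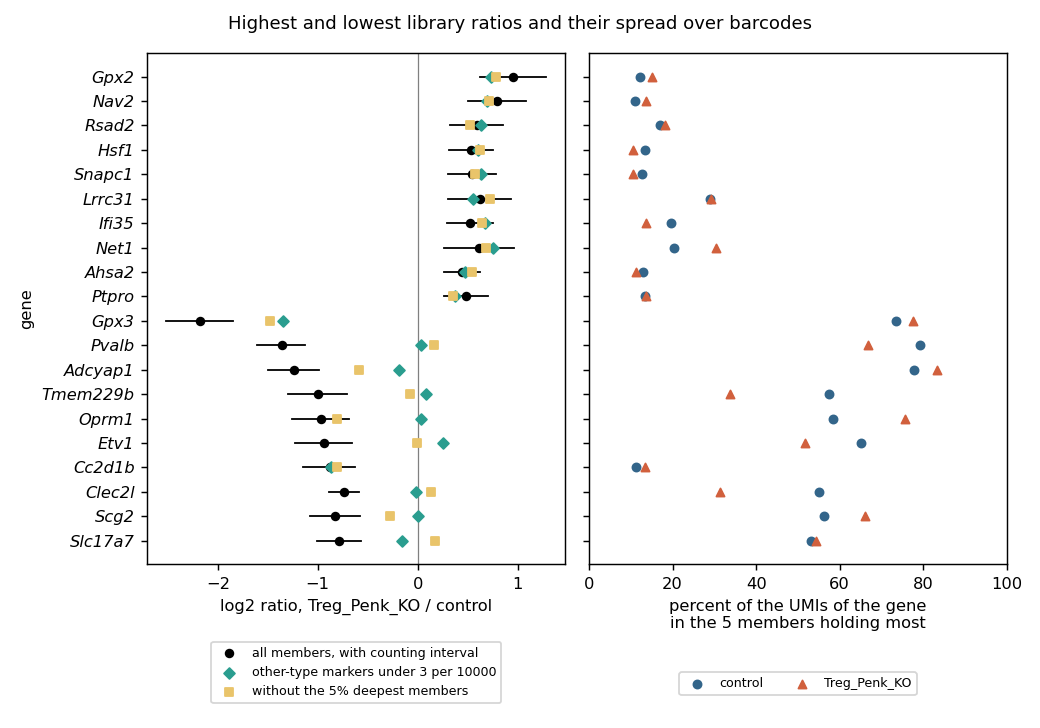
Left, log2 ratio of Treg_Penk_KO to control of the 10 highest and 10 lowest genes in all members with the 95% counting interval (black), in members with other-type markers under 3 per 10000 (diamonds) and without the 5% deepest members (squares). Right, percent of a gene's UMIs in the 5 members holding most, per library; the lower 10 except Cc2d1b lie between 31.4% and 83.3%.

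The plot of named ratios shows this for each gene. With members whose Pvalb, Slc17a7, Calca and Adcyap1 summed to under 3 per 10000, a limit chosen after the data had been seen, the ratio was 1.03 for Pvalb, 1.06 for Tmem229b, 1.02 for Oprm1, 1.19 for Etv1 and 1.00 for Scg2. The limit is set on Pvalb itself and on Adcyap1 and Slc17a7, so the value for Pvalb is fixed in part by the limit and tests nothing. Over 12 settings the ratio ran from 0.0964 to 1.52 for Pvalb, from 0.413 to 1.76 for Adcyap1 and from 0.230 to 1.29 for Slc17a7. It ran from 0.276 to 1.42 for Etv1, from 0.284 to 1.05 for Scg2, from 0.282 to 1.06 for Tmem229b and from 0.413 to 1.18 for Clec2l. The lowest values of Pvalb, Slc17a7, Etv1 and Clec2l came with droplets listed in 1 library only, and those of Scg2 and Tmem229b with glial markers under 20 per 10000. Of the 31 genes with an interval bound past the limit downward, 21 were at least 2-fold below other neurons (67.7%, against 3.42% of all 7368) and 22 had at least 40% of their UMIs in 5 members (71.0% against 1.22%). The part of RNA from other neuron types in these ratios was not tested. Cc2d1b, a protein of membrane remodelling, was at 52.0 and 28.2 CPM (0.543, 0.452 to 0.649), had 11.3% and 13.4% of its UMIs in 5 members, and kept a ratio between 0.511 and 0.643 under 12 settings. Its ratio in other neurons was 0.549 (0.530 to 0.569).

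Opioid receptors were scarce in members. Oprm1, the mu receptor and a receptor for enkephalin, had 387 UMIs in 55 control members (23.1%, 17.9 to 29.0) and 144 in 33 Treg_Penk_KO members (17.8%, 12.6 to 24.1). That gave 46.3 and 23.6 CPM, a ratio of 0.511 (0.419 to 0.620), against 194 and 225 CPM in other neurons. The A-delta set was close to members, at 39.2 and 27.1 CPM, so the low level was not particular to members. The Mrgprd set was at 113 and 102 CPM and the Nppb set at 604 and 633 CPM. The 5 members holding most had 58.4% and 75.7% of the members' Oprm1 UMIs, and thinned to 3000 UMIs the shares with a UMI were 5.46% and 5.41%. The ratio was 1.01 among droplets listed in 1 library only and 0.147 among members with glial markers under 20 per 10000, the latter the lowest of 12 settings. Oprd1, the delta receptor and the other main enkephalin receptor, had 8 and 6 UMIs (0.956 and 0.984 CPM) against 11.0 and 10.2 CPM in other neurons. Oprk1, the kappa receptor, had 0 and 1 UMIs, and the nociceptin receptor gene Oprl1 stood at 9.44 and 8.37 CPM.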

How the data were processed

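Fixed-RNA single-cell libraries were made with probes and sequenced, and the authors deposited 1 filtered matrix of whole-number UMI counts per library. Per the labels' protocols the reads were processed with Cell Ranger 7.0, whereas the matrix headers name version 8.0.1; the build was GRCm39, per the submitters' processing notes, which also name Seurat without a role. The matrices list 19059 genes, of which 10 on the lists used were not analysed here. A few listed genes count in the totals of their lists but are not reported here by name.

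Counts were summed over barcodes in Python 3.11.15 with pandas 2.3.3 and numpy 2.4.6, intervals came from scipy 1.17.1 and plots from matplotlib 3.10.9. Levels carry exact Poisson intervals, ratios exact conditional binomial intervals and shares Clopper-Pearson intervals, all at 95%. They were tested on simulated counts that held counting error only, so that test does not cover the spread between barcodes. A gene was compared between libraries when its mean over both was at least 20 CPM in members, and between sets when that held in either set. A difference between sets was counted past 2-fold in the same direction in both libraries, and between libraries past 0.32 on the log2 scale, without a test. No doublet caller was run, and the barcodes were used as deposited. The members and all lists were chosen with earlier results of these data known. Named genes were the 6 markers, listed genes by role, the 15 highest and 10 lowest against other neurons, the 10 highest and 10 lowest between libraries, each ranked by the interval bound nearest to 1, and Penk with the 4 opioid receptor genes.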

Additional observations from a re-analysis of the deposited data

How the results depend on the processing

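The groups are 1 library each, so all intervals leave out differences between mice and between preparations, and nothing here separates genotype from library. No paired analysis was possible because each group holds a single library and the labels give no shared replicate numbers. Of 86 checks of shares, counts of genes and the interferon list, 60 moved by less than the interval or, for counts, by at most 1.5 times; of 624 checks of single genes and gene lists, 470 did so, 138 moved further and 16 turned direction.

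The share of neurons was 3.85% (control) and 4.41% (Treg_Penk_KO) at 5000 UMIs or more, 2.67% and 2.99% with Th at 6 UMIs and 10 per 10000, 2.86% in the control with 2 Slc17a8 UMIs, 2.50% and 2.36% with droplets of 1 library only, 1.02% and 1.19% with glial markers under 20 per 10000, and 2.84% in the control with markers of other neuron types under 3 per 10000. The last limit, and a stricter neuron gate, were chosen after seeing the data. The limits on droplets, glial markers and markers of other neuron types were put on members alone. The base stayed all 7075 control and 5118 Treg_Penk_KO neurons, so those shares could only fall. They are not shares among neurons under the same limit.

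Genes higher between the libraries (84) numbered 152 with droplets of 1 library, 405 under the glial limit, 166 under the other-type limit, 1129 thinned to 3000 UMIs, 203 with barcodes weighted equally, 282 at 5 CPM, 12 at 50 CPM and 1599 with no filter. Genes lower (188) numbered 613 under the glial limit, 125 under the other-type limit, 1188 thinned, 689 at 5 CPM, 31 at 50 CPM and 2994 with no filter. Genes lower than in other neurons (780) numbered 1595 at 5 CPM and 368 at 50 CPM. Thinned and unfiltered counts rest on few UMIs per gene.

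Ratios turned direction with the stricter Th limit for Pvalb (1.52), Adcyap1 (1.76), Etv1 (1.42), Clec2l (1.18), Scg2 (1.05) and Slc17a7 (1.29), and without the 5% deepest members for Pvalb (1.12), Clec2l (1.10) and Slc17a7 (1.13). Under the other-type limit they did so for Pvalb (1.03), Tmem229b (1.06), Oprm1 (1.02), Etv1 (1.19) and Scg2 (1.00), with droplets of 1 library for Oprm1 (1.01), and under the glial limit for Net1 (0.812). The cause was not tested. Scaling by the median of ratios shifted all log2 ratios by 0.01 or less.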

Other observations

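Genes of T cell signalling were found in members without the T cell receptor complex. Cd4, the T helper cell co-receptor, had 54 UMIs in 46 control members and 45 UMIs in 38 Treg_Penk_KO members, or 6.45 and 7.38 CPM, against 0.214 and 0.178 CPM in other neurons and 1.34 and 0.966 CPM in non-neuron barcodes. Its control UMIs were spread over members, with 20.4% in the 5 holding most. Lck, a kinase that binds the product of Cd4, had 75 and 78 UMIs, or 8.96 and 12.8 CPM, against 2.52 and 3.14 CPM in other neurons. The T cell genes Cd3e, Cd3d, Cd3g, Cd8a and Foxp3 had no UMI in members, where a count of 3 would have been 0.359 and 0.492 CPM. Cd4 and Lck were named after their values had been seen.

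Cdkn1a, Dusp5 and Pdgfra, picked after their values had been seen, stood above other neurons while the lists they belong to did not. Of 13 glucocorticoid-induced genes 1 was higher and 6 lower, of 13 immediate early genes 1 higher and 4 lower, and of the 4 fibroblast markers with enough counts none higher and 4 lower. Cdkn1a, an inhibitor of the cell cycle, was at 322 CPM in control and 314 CPM in Treg_Penk_KO members, against 75.7 and 66.8 CPM (4.25-fold and 4.71-fold). Dusp5, a phosphatase that acts on ERK, was at 131 and 145 CPM against 48.1 and 39.9 CPM (2.72-fold and 3.62-fold). Pdgfra, a growth factor receptor used here as a fibroblast marker, was at 18.05 and 18.7 CPM against 6.01 and 6.30 CPM.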
